A study of Mus musculus with 4 samples.

Results

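In the expression table, 70 rows were lower in the Tbx18GFP/GFP urogenital sinus (UGS) than in wild type at both E16.5 and E18.5, and these genes are described here. They are the rows in which wild type had at least 1.4 times the mutant value at each stage, with at least 1 FPKM in both wild type libraries. FPKM is the number of sequenced fragments of a transcript, scaled to its length and the mapped reads of the library. Of 25819 rows in the table, 13783 had at least 1 FPKM in both wild type libraries, and 12648 of them remained after 11 symbol beginnings (Myh, Myl, Mybpc, Tnn, Act, Mir, Snor, Rnu, Rn, Gm and LOC) were set aside. In all, 101 rows met the values and 31 of them were set aside by symbol. The genes were chosen by the values in all 4 libraries, so their lower level in the mutant is a description and not a finding.

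The series measured RNA of the whole UGS of male mouse embryos by RNA-Seq. The mutants were Tbx18GFP/GFP embryos, null for Tbx18 through a GFP knock-in at the locus, and the controls were wild type littermates from timed matings of Tbx18GFP/+ animals. Each genotype was collected at E16.5 and at E18.5, and RNA from 3 embryos was pooled into 1 library for each genotype and stage. With 4 libraries and no replicates there was no test between genotypes, and no replicate error is given. In bulk tissue, fewer cells of a type and less RNA per cell cannot be told apart.

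Tbx18 is a T-box transcription factor of the mesenchyme that forms smooth muscle around the ducts of the urogenital tract. The UGS is the embryonic rudiment of the prostate and the proximal urethra. It holds an epithelium and a mesenchyme, and striated muscle of the urethral sphincter lies around it. Striated muscle is built of sarcomeres, in which thin actin filaments and thick myosin filaments are held in register by Z-discs, M-bands and the giant proteins titin and nebulin.

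The E18.5 wild type library stood apart from the other 3 libraries. Its depth, estimated from olfactory receptor genes read once, was about 29000000 mapped reads, against 52400000 to 64000000 in the others. Its FPKM summed to 375826, against 460392 to 504136. Over the 12648 rows, the median log2 ratio of mutant to wild type was 0.29 at E18.5, compared with 0.01 at E16.5. The E18.5 ratio also rose with the GC content of the transcript (Spearman's rho = 0.44 across 13040 rows with a known transcript and any symbol, against 0.02 at E16.5). Tbx18 itself had 3.47 FPKM in E16.5 wild type, 2.5 in E16.5 mutant, 3.16 in E18.5 wild type and 2.93 in E18.5 mutant, and it was not among the 70. The values do not separate transcripts of the targeted locus from those of an intact one.

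Of the 12648 rows, 327 (2.59%) were 1.4-fold lower in the mutant at E16.5, 1012 (8.0%) were at E18.5, and the 70 at both stages were 0.553%. They were 21.4% of the rows lower at E16.5 and 6.92% of the rows lower at E18.5. A further 88 of the rows lower at E16.5 were 1.4-fold higher in the mutant at E18.5. The median log2 ratio at E18.5 was 0.29 over the 12648 rows. The share of all rows 1.4-fold higher at that stage is not given here. In 38 of the 70 (0.30% of all rows), the lower wild type library had at least 1.4 times the value of the higher mutant library. Without the E18.5 wild type library, 168 rows (1.33%) had both mutant libraries at least 1.4-fold under E16.5 wild type, and 53 of the 70 genes were among them. Of the other 17, the E18.5 mutant value lay above E16.5 wild type in 6 (Optc, Ccl27a, Pcp4, Sprr1a, Nexn and Neto1), and in 11 it lay under it by less than 1.4-fold.

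The median log2 ratio over the 70 genes was -0.83 for E16.5 and -0.84 for E18.5. A fall of 1.5-fold or more was seen at both stages in 42 genes, and a fall of 2-fold or more in 12. The fall was larger at E16.5 in 32 genes and at E18.5 in 38. Most were expressed at low levels, with a median of 3.57 FPKM in E16.5 wild type and 4.39 in E18.5 wild type, against 10.7 and 8.03 over the 12648 rows. Only 10 had at least 10 FPKM in both wild type libraries, and 38 were under 5 FPKM in both. By role, 17 were genes of striated muscle, 4 were patterning and other transcription factors, and 7 were genes known from squamous epithelium. Another 3 were chemokines and cytokine antagonists, 11 were genes known from neurons, 4 were enzymes and 3 were small structured RNAs. The remaining 21 had other or unknown roles. A role names what a gene is known for, and not the cells that expressed it here. Just inside the threshold lay Myf6, Dpp10 and Lhfpl1, whose smaller ratios of wild type to mutant were 1.404, 1.405 and 1.406. Just outside lay Slc5a9, Kcnj2 and Bcl11a, at 1.399, 1.392 and 1.384.

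**Figure D1:**
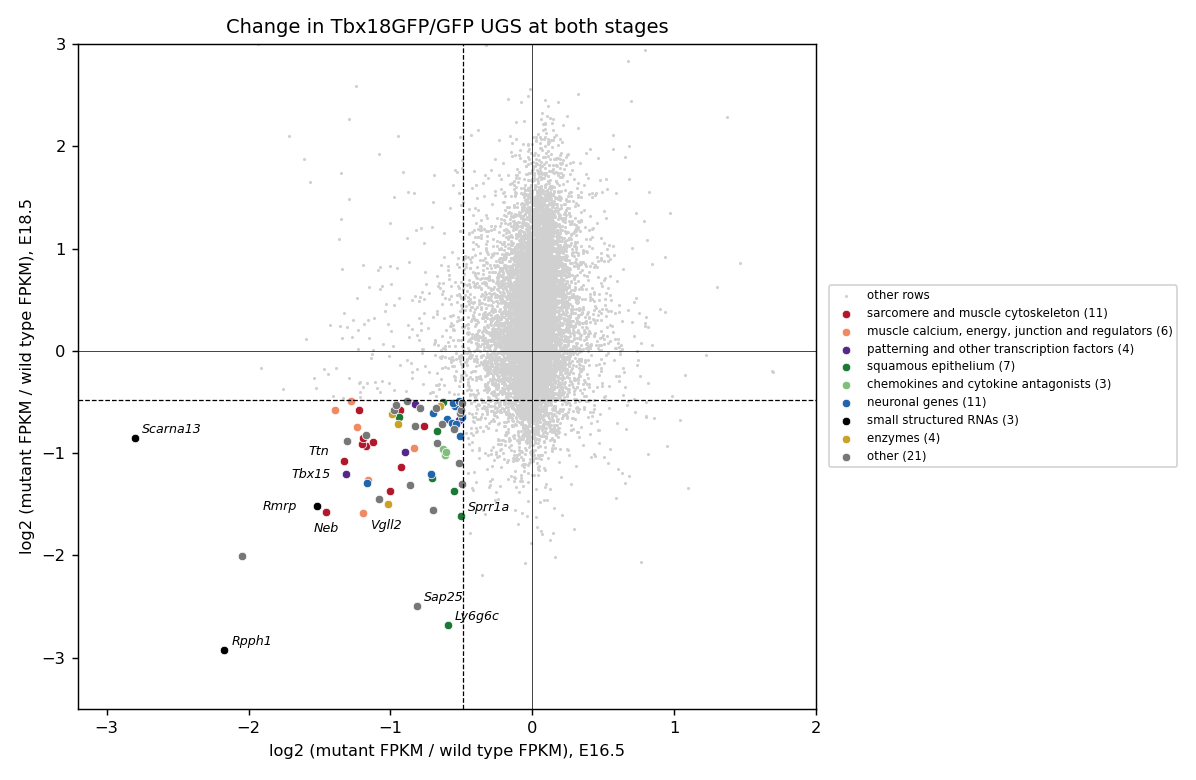
Each point is a row with at least 1 FPKM in both wild type libraries, with the log2 ratio of mutant to wild type FPKM at E16.5 on the horizontal axis and at E18.5 on the vertical axis. The 70 genes are coloured by role and lie below and left of the dashed lines, which mark a 1.4-fold fall, with Scarna13 furthest left at -2.80 and Rpph1 lowest at -2.93. Grey rows beyond the axes are not drawn.

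The sequence before the start site of several of these genes is known from the RefSeq annotation of GRCm38.p6. Windows of 250 bases before to 50 bases after the start were found for 44 of the 70 genes, 8 of them muscle genes. They were searched on both strands for 7 motifs: the myogenic E-box CAGCTG, which reads the same on both strands, the T-box site GGTGTGA, the M-CAT element CATTCC bound by TEAD factors, the TATA box TATAAA, the GC box GGGCGG, and the MEF2 site and CArG box by their usual degenerate forms. The E-box was present in 15 of the 44 windows (34.1%), against 15.02% of 9947 windows of genes with at least 1 FPKM in both wild type libraries and 16.1% of all 27025 windows. Among the 8 muscle genes it was present in 4, those of Chrna1, Hrc, Myoz2 and Sync. The other 11 windows belonged to genes of other roles, among them Sprr1a, Il1rn, Chrnb4 and Optc. The MEF2 site was present in 2 windows, those of Myoz2 and Ttn (4.55%, against 1.54% of the 9947). The T-box site was in 1 window, that of Clic3 (2.27%, against 3.11%), and the CArG box was in 0 of 44, against 1.28%. The TATA box was in 6 windows (13.6%, against 6.94%), the M-CAT element in 5 (11.4%, against 12.0%) and the GC box in 18 (40.9%, against 66.2%). A match is a description of the letters in the window and not a bound site.

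The windows of Chrna1, Hrc, Myoz2 and Ttn are shown because they hold an E-box or a MEF2 site before the start site (the E-box of Sync begins at 27, after it), and that of Sprr1a because it was the most abundant of the 70 transcripts. Each is written 5′ to 3′ on the strand of the gene. Capitals mark the E-box, the MEF2 site, the M-CAT element and the TATA box. Chrna1 lies at chr2:73580289-73580588 on the minus strand and has E-boxes that begin at -92 and -44 from the start site. Hrc lies at chr7:45335019-45335318 on the plus strand and has an E-box at -22. Myoz2 lies at chr3:123034938-123035237 on the minus strand and has a MEF2 site at -33 and an E-box at -12. Ttn lies at chr2:76982498-76982797 on the minus strand and has a MEF2 site at -166 and an M-CAT element at 12. Sprr1a lies at chr3:92485832-92486131 on the minus strand and has E-boxes at -173 and -33 and a TATA box at -43.
Chrna1: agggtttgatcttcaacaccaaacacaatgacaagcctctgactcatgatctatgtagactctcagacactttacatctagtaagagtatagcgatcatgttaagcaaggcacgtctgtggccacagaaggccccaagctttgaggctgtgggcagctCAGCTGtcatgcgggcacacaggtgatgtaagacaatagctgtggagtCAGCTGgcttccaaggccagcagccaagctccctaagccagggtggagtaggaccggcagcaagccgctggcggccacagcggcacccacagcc
Hrc: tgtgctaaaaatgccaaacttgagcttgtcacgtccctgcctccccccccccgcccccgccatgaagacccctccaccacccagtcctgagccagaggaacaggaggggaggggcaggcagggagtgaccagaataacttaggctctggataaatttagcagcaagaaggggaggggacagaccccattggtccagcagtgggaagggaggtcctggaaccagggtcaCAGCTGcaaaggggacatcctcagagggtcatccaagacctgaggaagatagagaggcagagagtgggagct
Myoz2: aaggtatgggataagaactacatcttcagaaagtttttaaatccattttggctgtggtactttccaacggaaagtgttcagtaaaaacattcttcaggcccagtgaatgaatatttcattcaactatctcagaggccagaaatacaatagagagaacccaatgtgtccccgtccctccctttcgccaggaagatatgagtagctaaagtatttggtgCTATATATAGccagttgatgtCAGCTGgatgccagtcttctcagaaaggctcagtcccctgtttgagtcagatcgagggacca
Ttn: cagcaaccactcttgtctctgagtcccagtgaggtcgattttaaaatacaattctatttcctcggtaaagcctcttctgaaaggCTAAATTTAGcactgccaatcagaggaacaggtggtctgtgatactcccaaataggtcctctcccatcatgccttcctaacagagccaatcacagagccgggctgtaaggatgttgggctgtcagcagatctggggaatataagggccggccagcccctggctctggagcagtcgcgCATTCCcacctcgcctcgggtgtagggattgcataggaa
Sprr1a: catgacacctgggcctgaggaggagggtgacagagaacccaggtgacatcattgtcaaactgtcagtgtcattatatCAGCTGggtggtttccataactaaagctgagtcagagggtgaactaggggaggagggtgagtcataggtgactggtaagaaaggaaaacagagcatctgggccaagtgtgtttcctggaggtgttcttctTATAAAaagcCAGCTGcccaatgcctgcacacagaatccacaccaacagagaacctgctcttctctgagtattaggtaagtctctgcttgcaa

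Sarcomere and muscle cytoskeleton genes made up 11 of the 70, and the 11 had a median log2 ratio of -1.17 at E16.5 and -0.91 at E18.5. Neb encodes nebulin, the giant protein along the thin filament, and had 5.78 FPKM in E16.5 wild type, 2.11 in E16.5 mutant, 5.25 in E18.5 wild type and 1.76 in E18.5 mutant. Ttn encodes titin, which spans the sarcomere from Z-disc to M-band, and had 3.30, 1.32, 2.29 and 1.09 FPKM in the same order. Lmod3, a nucleator of thin filaments, had 4.15, 2.07, 4.41 and 1.70 FPKM. For each of these 3 genes both mutant libraries lay under both wild type libraries, with log2 ratios from -1.005 to -1.46 at E16.5 and from -1.08 to -1.58 at E18.5. After a trend of the ratios on transcript length and GC content was removed, the E18.5 log2 ratio of Ttn was -0.41, short of a 1.4-fold fall. The row of Neb overlaps another row of the table, and its reads could be shared with it.

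Z-disc genes followed. Myoz2, which encodes a calsarcin that binds calcineurin at the Z-disc and whose window is shown above, had 9.01, 3.92, 7.52 and 4.00 FPKM. Myot, which encodes myotilin, had 4.00, 1.84, 4.28 and 2.31 FPKM. Mypn, which encodes myopalladin, had 1.88, 0.835, 1.25 and 0.652 FPKM. In all 3 the wild type libraries stood above the mutant libraries with no overlap. The methyltransferase gene Smyd1, needed for sarcomere assembly, had 9.78, 4.27, 7.08 and 3.91 FPKM, and log2 ratios of -1.19 and -0.86. Nexn, which encodes the actin-binding protein nexilin, was the most abundant of the 11, with 22.2, 13.1, 43.3 and 26.0 FPKM. Its E18.5 mutant value exceeded the E16.5 wild type value by 0.23 on the log2 scale, so for Nexn the genotypes were apart within each stage and not across stages. Myom2, a component of the M-band, had 7.38, 3.16, 3.92 and 2.63 FPKM, and its log2 ratio was -1.22 at E16.5 against -0.58 at E18.5. Sync and Txlnb, which encode the intermediate filament protein syncoilin and beta-taxilin, had between 1.79 and 3.08 FPKM in wild type and between 0.818 and 1.61 in mutant libraries.

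A further 6 muscle genes encode calcium, energy and junction proteins and regulators. Hrc, the histidine-rich calcium-binding protein of the sarcoplasmic reticulum, had 7.21, 4.06, 7.47 and 3.85 FPKM. Cox6a2, the striated muscle form of a cytochrome c oxidase subunit, had 5.41, 2.42, 6.89 and 2.87 FPKM, and its row overlaps that of Itgad. Vgll2, a cofactor of TEAD factors in skeletal muscle, had 2.62, 1.15, 2.42 and 0.807 FPKM. These 3 genes fell more at E18.5 than at E16.5, with E18.5 log2 ratios of -0.95, -1.26 and -1.58.

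The other 3, Chrna1, Chrnd and Myf6, fell more at E16.5 than at E18.5. Chrna1, which encodes the alpha subunit of the muscle acetylcholine receptor, had 3.54, 1.5, 2.38 and 1.41 FPKM. Chrnd, which encodes its delta subunit, had 2.52, 0.959, 1.29 and 0.863 FPKM. Myf6, a myogenic basic helix-loop-helix factor, had 3.49, 1.44, 1.63 and 1.16 FPKM. The log2 ratios of the 3 genes ran from -1.23 to -1.39 at E16.5 and from -0.49 to -0.75 at E18.5. The 95% counting interval of the Myf6 ratio reached 0 at E18.5, and in wild type its level was lower at E18.5 than at E16.5 by -1.10 on the log2 scale.

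**Figure D2:**
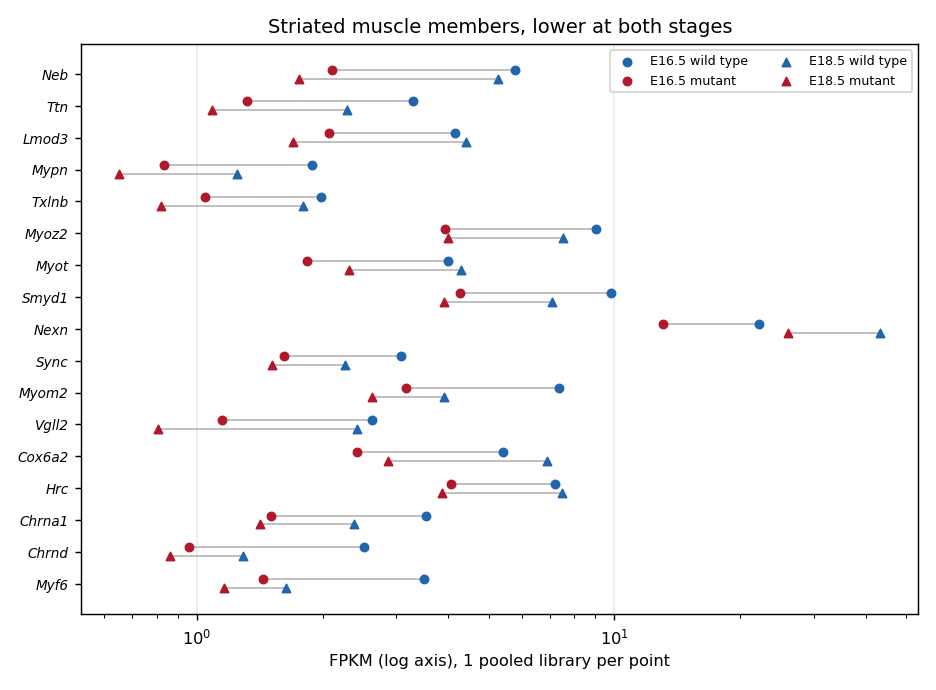
FPKM of the 17 striated muscle genes on a log axis, 1 point per pooled library, with circles for E16.5, triangles for E18.5, blue for wild type and red for mutant. Lines join the genotypes of a stage. Nexn is the highest, from 13.1 to 43.3 FPKM, and the span between genotypes at E18.5 is narrowest for Myf6, at 1.63 and 1.16 FPKM.

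Lists of striated muscle genes gave the wider picture. In 4 lists of sarcomere, excitation-contraction coupling, muscle energy and myogenic or junction genes, 95 genes had at least 1 FPKM in both wild type libraries, whatever their symbol. Of these, 76 were 1.4-fold lower in the mutant at E16.5, 21 at E18.5 and 18 at both. Among all 13783 rows with at least 1 FPKM in both wild type libraries, 2.84% were lower at E16.5, 9.32% at E18.5 and 0.733% at both, which is the background for each list below. The median log2 ratio of the 95 was -1.04 for E16.5 and -0.06 for E18.5. The mutant was higher in 44 of the 95 at E18.5, in 23 of them by at least 1.4-fold. Over 13040 rows with a known transcript and any symbol, the median log2 ratio at E18.5 was 0.29. The share of those rows that were higher is not given here. Summed levels cover all 137 genes of these lists with a row, whatever their level. They were 2391 FPKM in E16.5 wild type, 1186 in E16.5 mutant, 1439 in E18.5 wild type and 2074 in E18.5 mutant. The skeletal actin gene Acta1, for example, had 230.5, 81.8, 110.5 and 455 FPKM and was higher in the mutant at E18.5. Of the 18 genes lower at both stages, 13 were among the 70. With the symbols still set aside, the count of 13 became 29 with library sums made equal, 23 with log2 ratios centred or upper quartiles matched, 30 with a trend on length and GC content subtracted, and 46 with E16.5 wild type as the control of the E18.5 mutant. Among the 18, Actn2, Myh3, Myh7, Myl1 and Tnnt1 had been set aside by symbol. Myh3, the embryonic myosin heavy chain, had 102 FPKM in E16.5 wild type, 45.1 in E16.5 mutant, 66.4 in E18.5 wild type and 38.2 in E18.5 mutant. Myl1, a fast myosin light chain, had 179, 87.2, 141.6 and 95.2 FPKM. Myog, which encodes myogenin, missed the threshold, with 36.4, 15.7, 17.5 and 12.8 FPKM.

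Within the 95 genes the E18.5 ratio moved with GC content. Spearman's rho between the log2 ratio and the GC content of the transcript was 0.36 at E18.5 and -0.06 at E16.5, across genes that share the same libraries and are not independent. The 22 genes with at most 48% GC had a median log2 ratio of -0.38 at E18.5, and 7 of them were lower at both stages. The 22 genes above 56% GC had a median of 0.12, and 2 were lower at both stages. At E16.5 the medians of the same classes were -1.04 and -1.14. The median GC content was 50.8% in the 18 genes lower at both stages and 54.3% in the other 77. The 13040 rows with a known transcript showed the same order at E18.5, with medians of 0.05 up to 48% GC and 0.75 above 56%. The part of GC content in which muscle genes were lower at E18.5 was not tested.

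**Figure D3:**
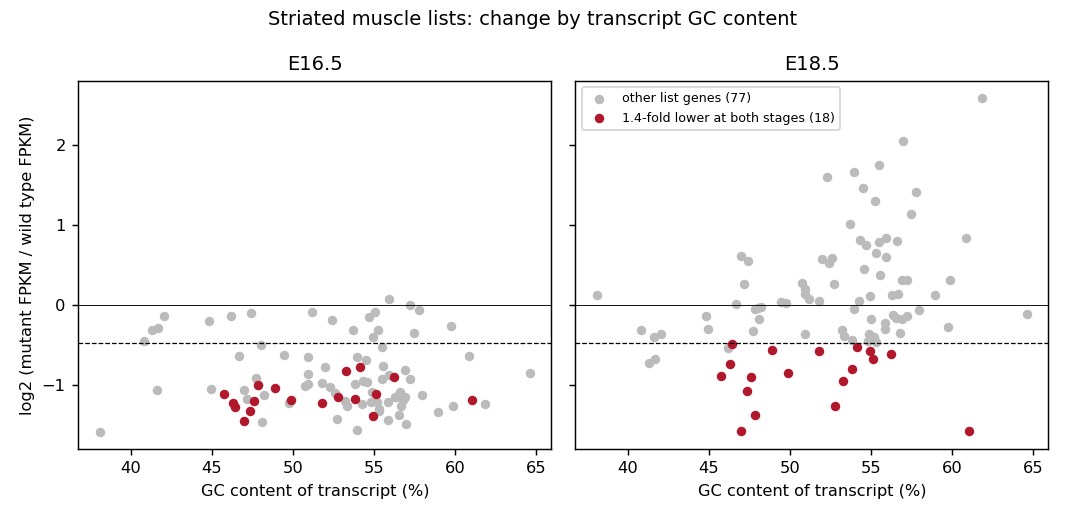
Log2 ratio of mutant to wild type FPKM against GC content of the transcript (percent) for 95 striated muscle list genes at E16.5 (left) and E18.5 (right). Red points are the 18 genes 1.4-fold lower at both stages, and the dashed line marks a 1.4-fold fall. The cloud is flat at E16.5 (rho = -0.06) and rises with GC content at E18.5 (rho = 0.36).

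The group of patterning and other transcription factors held Tbx15, Six2, Hoxc10 and Bcl6, and the epithelial factor Zfp750 is described with its tissue. Tbx15, a T-box factor closely related to Tbx18, had 5.57 FPKM in E16.5 wild type, 2.24 in E16.5 mutant, 4.31 in E18.5 wild type and 1.87 in E18.5 mutant, with log2 ratios of -1.32 and -1.20. Six2, a homeobox factor known for its role in nephron progenitors, had 4.94, 2.65, 4.02 and 2.02 FPKM. Hoxc10, a posterior Hox gene, was the most abundant, with 10.9, 7.59, 11.8 and 7.39 FPKM. All of these had both mutant libraries under both wild type libraries. Bcl6, a transcriptional repressor, had 1.91, 1.08, 1.60 and 1.12 FPKM. In a list of 45 patterning transcription factors with at least 1 FPKM in both wild type libraries, 11 were lower at E16.5 (background 2.84%), 11 at E18.5 (background 9.32%) and 2 at both (background 0.733%), Tbx15 and Six2. The median of the 45 was -0.07 at E16.5 against -0.10 at E18.5. Foxa1, a factor of the prostatic epithelium, missed the threshold at E16.5, with 19.4, 14.4, 30.0 and 15.3 FPKM.

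Genes of squamous epithelium gave 7 of the 70. Sprr1a encodes a small proline-rich protein of the cornified envelope, the protein shell of keratinizing cells, and had 199 FPKM in E16.5 wild type, 140.5 in E16.5 mutant, 822 in E18.5 wild type and 268 in E18.5 mutant. It rose between stages in both genotypes, by 2.04 on the log2 scale in wild type and by 0.93 in the mutant. Other members of its family were far lower in level: Sprr2a3 had 40.6, 24.97, 38.8 and 29.4 FPKM, and Sprr1b was under 0.3 FPKM in every library. Sprr2f and Sprr2g were higher in the mutant at E16.5 and lower at E18.5. Sprr2a and Sprr2a2 were lower at E16.5 and slightly higher at E18.5, and Sprr3 was lower at both stages. Ppl, which encodes periplakin, a desmosomal and cornified envelope protein, had 16.4, 10.6, 13.6 and 9.61 FPKM. Zfp750, a zinc finger factor of epidermal differentiation, had 6.86, 4.32, 6.22 and 3.61 FPKM, and its row overlaps that of Tbcd. Both were lower in the mutant libraries at either stage with no overlap. Scel, which encodes the envelope precursor sciellin, had 2.98, 1.83, 2.84 and 1.20 FPKM. Ly6g6c, a Ly6 family gene, had 2.62, 1.73, 6.23 and 0.972 FPKM, and its E18.5 log2 ratio of -2.68 was the lowest of the 70 after that of Rpph1. Calml3, which encodes a calmodulin-like protein of epithelia, had 1.81, 1.23, 1.42 and 0.551 FPKM, and Pof1b 2.35, 1.23, 3.21 and 2.05. The median over the 7 was -0.63 at E16.5 against -1.25 at E18.5.

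Lists of other epithelial cells gave these counts. Of 34 basal and luminal epithelial genes with at least 1 FPKM in both wild type libraries, 5 were lower at E16.5, 7 at E18.5 and 0 at both. Of 12 urothelial genes, 7 were lower at E16.5, with a median log2 ratio of -0.50 over the 12, 2 at E18.5 and 0 at both. The share of all rows lower at both stages was 0.733%, so these counts of 0 are near the background. In a list of epidermis and skin, 3 of 8 were lower at E16.5, 4 at E18.5 and 1 at both, Sprr1a itself. All 16 genes of that list, whatever their level, summed to 235.6, 170.6, 868 and 304 FPKM, most of it from Sprr1a. The involucrin gene Ivl, another envelope component, had 9.63, 8.82, 25.9 and 17.5 FPKM. The other 6 of the 8, Krtdap, Lor, Sbsn, Krt6a, Krt10 and Krt1, were between 1.39 and 5.70 FPKM in wild type. Of the 8, 0 were higher in the mutant at E16.5 and 2 were higher at E18.5, Krt6a and Sbsn. Krt6a had 5.12, 4.37, 1.39 and 2.54 FPKM, and Sbsn had 5.61, 5.55, 4.19 and 5.34. The filaggrin gene Flg had at most 0.0420 FPKM in any library. In the same order of libraries all 37 basal and luminal genes of the list, whatever their level, summed to 1456, 1192, 1004 and 1159 FPKM. The part of skin or surface epithelium in these values was not tested.

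The 3 genes of chemokines and cytokine antagonists fell by 0.61 to 0.63 on the log2 scale at E16.5 and by 0.96 to 1.02 at E18.5. Cxcl15, a CXC chemokine, had 12.1, 7.92, 7.97 and 3.93 FPKM. Ccl27a, a chemokine of skin epithelium, had 5.87, 3.79, 18.9 and 9.69 FPKM. Il1rn, the secreted antagonist of the interleukin-1 receptor, had 3.40, 2.23, 4.8 and 2.42 FPKM. Ccl27a rose with stage in both genotypes, so its E18.5 mutant value lay above E16.5 wild type, and its row overlaps that of Il11ra1. Among leukocyte markers, 12 of 12 macrophage genes and 6 of 6 neutrophil and granulocyte genes were higher in the mutant at E16.5. Their median log2 ratios at E16.5 were 0.29 and 1.98, against 0.01 over the 12648 rows. The share of all rows that were higher is not given here. All 14 neutrophil and granulocyte genes with a row, whatever their level, summed to 20.04, 112.5, 27.2 and 15.8 FPKM. Of the 6 neutrophil and granulocyte genes with at least 1 FPKM in both wild type libraries, 4 were 1.4-fold lower at E18.5. Of the 12 macrophage genes 2 were lower at E18.5, and 0 genes of either list were lower at both stages.

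Of 11 genes known from neurons, Pcp4, Lrrn1 and Epha7 were the most abundant. Pcp4, which encodes a small calmodulin-binding protein, had 19.9, 12.1, 67.6 and 29.4 FPKM, and rose by 1.76 between stages in wild type and by 1.28 in the mutant. Lrrn1, a leucine-rich repeat membrane protein, had 20.2, 14.2, 18.4 and 10.3 FPKM. Epha7, an ephrin receptor, had 14.3, 10.2, 13.8 and 8.76 FPKM. Arpp21, a cyclic AMP regulated phosphoprotein, fell most, with 4.78, 2.13, 4.36 and 1.78 FPKM, and its row overlaps another. Nefh, the heavy neurofilament subunit, had 2.97, 1.96, 3.72 and 2.34 FPKM, and Chrnb4, an acetylcholine receptor subunit of autonomic ganglia, had 2.29, 1.55, 2.70 and 1.66. The other 5, Rgs7, Pcdh17, Slitrk3, Dpp10 and Neto1, were between 1.21 and 4.43 FPKM in wild type. The median of the 11 was -0.56 at E16.5 against -0.67 at E18.5. In a fixed list of 27 neuron and glia markers, 1 was lower at E16.5 and 7 at E18.5, against 2.84% and 9.32% of all rows, and 0 at both, against 0.733%.

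**Figure D4:**
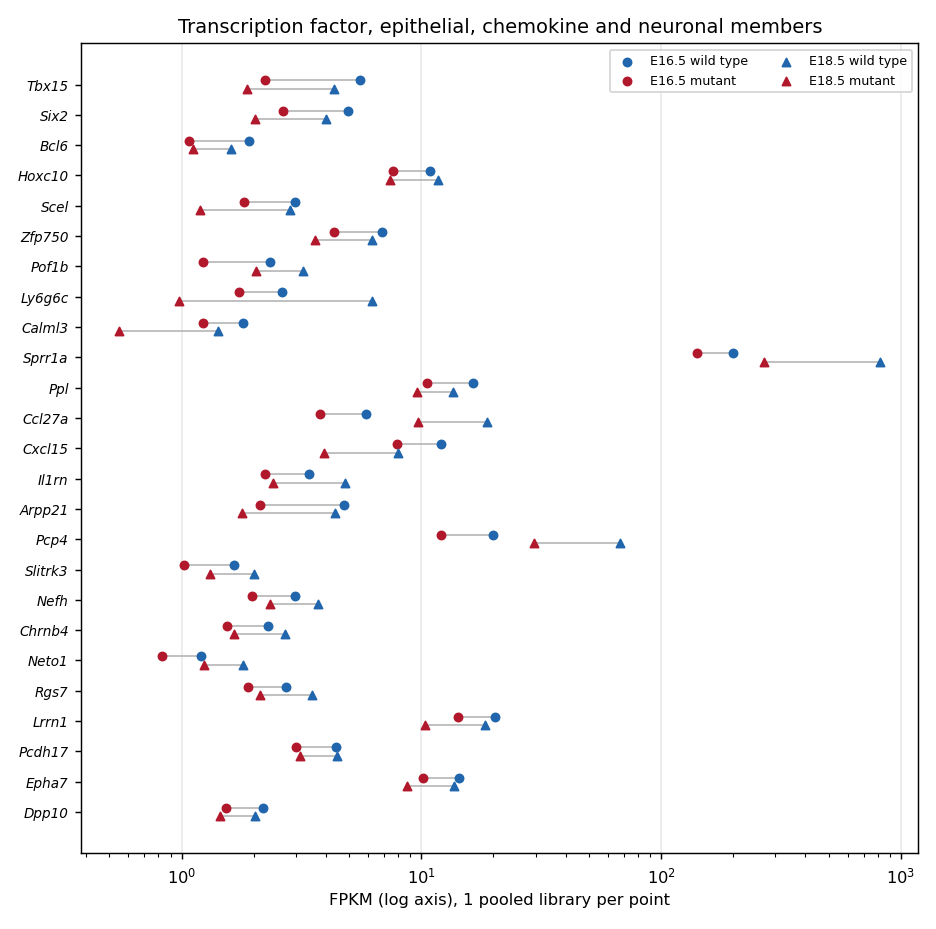
FPKM of the 4 transcription factors, 7 squamous epithelial genes, 3 chemokine and cytokine antagonist genes and 11 neuronal genes on a log axis, 1 point per pooled library, with circles for E16.5, triangles for E18.5, blue for wild type and red for mutant. Sprr1a reaches 822 FPKM in E18.5 wild type, and most other genes lie under 20 FPKM in each library.

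The small structured RNAs had the lowest group medians, at -2.17 for E16.5 and -1.52 for E18.5, though single genes of other roles, such as 1700102H20Rik at -2.05 and -2.004, fell further than Rmrp. Rpph1, the RNA component of ribonuclease P, which trims the 5′ ends of transfer RNAs, had 8.60 FPKM in E16.5 wild type, 1.91 in E16.5 mutant, 11.6 in E18.5 wild type and 1.52 in E18.5 mutant. Rmrp, the RNA of ribonuclease MRP, which cleaves ribosomal RNA precursors, had 28.5, 9.94, 27.1 and 9.45 FPKM. Both lay in every mutant library well under every wild type library, at log2 ratios of -2.17 and -2.93 for Rpph1 and of -1.52 at both stages for Rmrp. The Rpph1 values rest on about 11 estimated reads in E16.5 mutant and 8 in E18.5 mutant. Its 95% counting intervals were wide, from -3.28 to -1.26 at E16.5 and from -4.34 to -1.89 at E18.5. Scarna13, a small Cajal body RNA within Snhg10, had 1.82, 0.261, 2.01 and 1.11 FPKM. Its 95% counting interval reached 0 at both stages, since few reads lie behind each value.

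These RNAs have no poly(A) tail, and the libraries were made with a kit for messenger RNA. In the table, 23 small structured RNAs had at least 1 FPKM in both wild type libraries. Of these, 13 were lower at E16.5, 15 at E18.5 and 12 at both, against 0.733% of all rows at both, and 9 of the 12 had been set aside by symbol. Rn7sk, the RNA that holds the elongation factor P-TEFb inactive, had 81.6, 40.0, 637 and 34.4 FPKM. Rnu2, the spliceosomal U2 RNA, had 82.6, 50.4, 239.6 and 60.0 FPKM. In both, the E18.5 wild type library was the highest. The rows Rnu3b1, Rnu3b2 and Rnu3b3 held the same 4 values and stand for near-identical copies. Snora17 moved the other way, with 67.9, 185, 18.7 and 134.6 FPKM. The part of the library preparation in these values was not tested.

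Among the enzymes, Akr1e1, an aldo-keto reductase, fell most, with 6.17, 3.05, 9.21 and 3.26 FPKM. Cyp2f2, a cytochrome P450, had 7.67, 3.98, 5.94 and 3.61 FPKM. Dio2, the deiodinase that activates thyroid hormone, had 3.10, 1.97, 2.88 and 1.98 FPKM, and the galactosyltransferase gene B3galt2 had 1.26, 0.637, 1.24 and 0.808. In all 4, each mutant library lay under each wild type library.

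Of the 21 genes with other or unknown roles, Tceal7 was the most abundant in wild type, with 23.8, 13.1, 30.8 and 12.4 FPKM. Epb4.1l4b, a member of the band 4.1 family, had 14.3, 10.1, 13.9 and 9.77 FPKM. Optc, which encodes the small leucine-rich proteoglycan opticin, had 1.76, 0.782, 6.87 and 3.88 FPKM and rose with stage in both genotypes. Sap25, a subunit of a histone deacetylase complex whose row overlaps that of Lrch4-sap25, had 2.79, 1.59, 7.34 and 1.3 FPKM, and log2 ratios of -0.81 and -2.5. Against E16.5 wild type, the E18.5 mutant value of Sap25 was lower by -1.10. Fndc3c1 had 3.61, 1.46, 2.49 and 1.35 FPKM, and 1700102H20Rik 2.13, 0.514, 4.93 and 1.23. Ablim3, Mall, Palmd and Prr16 had between 6.5 and 9.89 FPKM in wild type and between 4.39 and 6.82 in mutant libraries. The other 11 were Mns1, Hsbp1l1, Clic3, Ly6k, Lhfpl1, Ksr2, Clca5, 1100001E04Rik, 1700029I01Rik, 4632427E13Rik and A630033H20Rik, with between 1.06 and 8.19 FPKM in wild type and between 0.623 and 3.82 in the mutant.

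Between stages, 44 of the 70 genes were within 1.4-fold in wild type (62.9%, against 53.2% of the 12648 rows), 16 were higher at E18.5 and 10 were lower. In the mutant 53 were within 1.4-fold (75.7%, against 95.3%), and 37 were so in both genotypes (52.9%, against 50.8%). The median log2 change with stage was -0.05 in wild type and -0.08 in the mutant, against -0.34 and -0.06 over the 12648 rows. Sprr1a, Pcp4, Ccl27a and Optc rose in both genotypes, by 1.68 to 2.04 in wild type and by 0.93 to 2.31 in the mutant on the log2 scale. Ly6g6c and Sap25 rose in wild type, by 1.25 and 1.4, and not in the mutant, at -0.83 and -0.29.

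**Figure D5:**
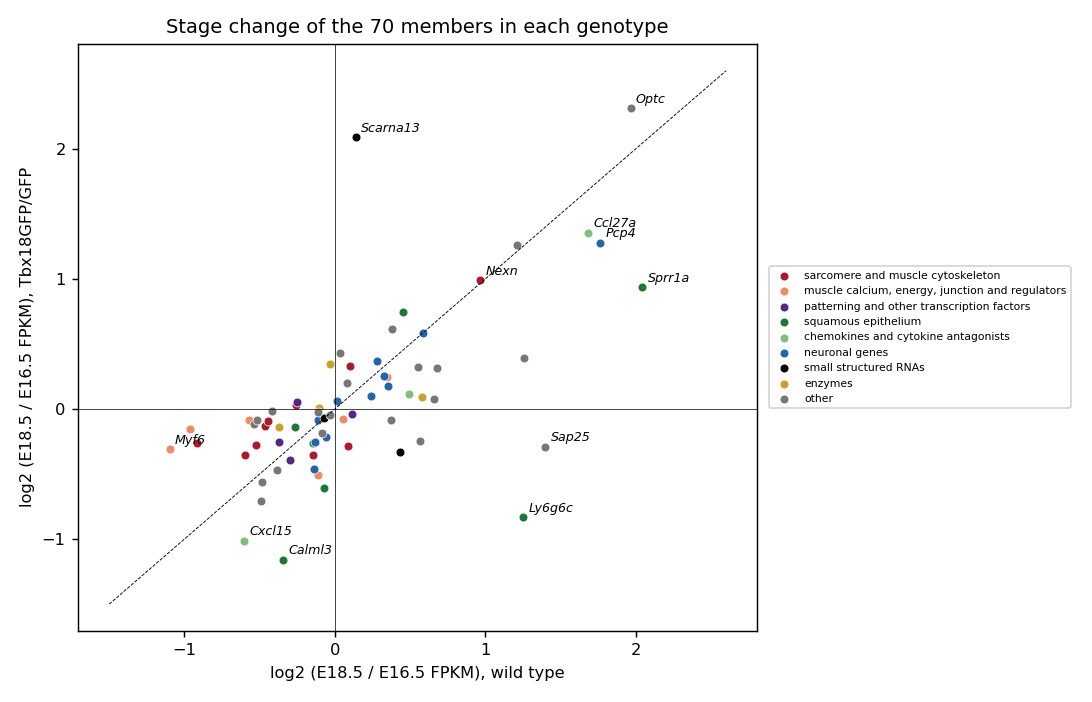
Log2 ratio of E18.5 to E16.5 FPKM in wild type (horizontal axis) and in Tbx18GFP/GFP (vertical axis) for the 70 genes, coloured by role, with the dashed line marking equal change. Most points lie near 0 on both axes, Optc, Ccl27a, Pcp4 and Sprr1a lie at the upper right, and Ly6g6c and Sap25 lie at the lower right. Scarna13, at 2.09 in the mutant, rests on few reads.

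Protein coding genes made up 64 of the 70 (91.4%), against 96.9% of the 12648 rows. The median GC content of the transcripts was 47.7%, against 50.1% over the 12648 rows, 51.8% for the rows lower at E16.5 and 46.9% for those lower at E18.5. The median transcript length was 2944 bases, against 3221. On chromosome X lay 6 of the 70 (8.57%), against 3.57% of the rows. Loci of 12 genes overlapped another row of the table. Under 20 estimated reads lay behind a value of 3 genes, Rpph1, 1700102H20Rik and Scarna13. The 95% counting interval of the ratio reached 0 in Scarna13 and Ly6k at E16.5 and in Scarna13, Clic3 and Myf6 at E18.5, and it covers counting error only.

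Markers of some other cell types also differed between the wild type and mutant libraries, not always in the same direction at both stages. Of 27 smooth muscle genes, 14 were lower at E16.5 (background 2.84%), 1 was lower at E18.5 (background 9.32%) and 0 at both (background 0.733%). At E18.5, 24 of the 27 were higher in the mutant, 20 by at least 1.4-fold. The median log2 ratio of the 27 was 0.83 at E18.5, against 0.29 over the 12648 rows. The share of all rows that were higher is not given here. All 28 genes of that list, whatever their level, summed to 2584, 1723, 2954 and 6307 FPKM. These values are in the order E16.5 wild type, E16.5 mutant, E18.5 wild type and E18.5 mutant. All 11 erythroid genes with a row, whatever their level, summed to 17945, 28888, 5872 and 28510 FPKM, lowest in E18.5 wild type. Of the 6 with at least 1 FPKM in both wild type libraries, 6 were higher in the mutant at each stage. Their median log2 ratios were 0.68 at E16.5 and 2.23 at E18.5, against 0.01 and 0.29 over the 12648 rows. The share of all rows higher at both stages is not given here. Of 19 endothelial and pericyte genes, 11 cartilage and bone genes and 5 adipocyte genes, 0 were lower at both stages. Over all 19 lists, 341 genes had at least 1 FPKM in both wild type libraries and 21 were lower at both stages, 16 of them among the 70. The part of cell composition in the levels of the 70 genes was not tested.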

How the data were processed

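For RNA-Seq, the UGS of male Tbx18GFP/GFP and wild type embryos (E16.5 and E18.5) was pooled from 3 embryos into each of 4 libraries with a stranded mRNA kit. According to the submitters' processing notes, CASAVA 1.8.2, Trimmomatic 0.30, TopHat2 2.1.0 and Cufflinks 2.2.1 were used, and Tophat ran with default options. The genome build is not given in the sources used here, and whether strand was used to assign reads is not stated, so values of overlapping genes are uncertain. The authors deposited FPKM from Cufflinks, 1 column per library for 25819 rows, with no further scaling. Read counts were not analysed here.

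The 70 genes were selected by ratios of FPKM without a pseudocount (at least 1.4 at each stage, with at least 1 FPKM in both wild type libraries). The genes and the 19 gene lists were chosen with earlier results of these data known. The genes named by rule were the 15 with the largest smaller fall among those with at least 5 FPKM in wild type, up to 4 per list, transcription factors, the rows at the threshold, genes of the study's text, and Tbx18. The other genes of the 70 were named after their values were seen. Depth was estimated from 15 to 27 olfactory receptor genes per library with 1 read each, as 64000000, 55700000, 29000000 and 52400000 mapped reads in the order E16.5 wild type, E16.5 mutant, E18.5 wild type and E18.5 mutant. Intervals of 95% from these reads cover counting error only. GC content and transcript length came by symbol from GENCODE transcripts. Biotype and promoter windows came by symbol from RefSeq on GRCm38.p6, whose positions were not mixed with those of the table. Steps were tested on simulated data. With 1 library per group no test was applied. Tables were handled with pandas 2.3.3 and numpy 2.4.6 under Python 3.11.15, trends with statsmodels 0.14.6, correlations with scipy 1.17.1, and plots with matplotlib 3.10.9.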

Additional observations from a re-analysis of the deposited data

How the results depend on the processing

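The number of genes lower at both stages, 70 as reported, depended on the threshold and the scaling. It was 132 at a ratio of at least 1.3, 42 at 1.5 and 12 at 2. It was 407 with no floor on low values, 26 with a floor of 5 FPKM and 32 with a pseudocount of 1. With library sums made equal it was 225, with log2 ratios centred on their median 121, with upper quartile scaling 122, and with a trend on length and GC content subtracted (lowess, span 0.3) 139, of which 63 were among the 70. The 7 others were Ttn, B3galt2, Neto1 and Pcdh17, at -0.41, -0.24, -0.30 and -0.32 for E18.5, Epb4.1l4b and Epha7, at -0.47 for E16.5, and Dpp10, at -0.45 and -0.11. Under the other 3 scalings each of the 70 remained. That outcome was fixed in advance, since these 3 lower every ratio of mutant to wild type at both stages. At E16.5 they added -0.106, -0.013 and -0.009 to the log2 ratio. The 4 scalings, in the order given, added -0.42, -0.29, -0.30 and -0.31 to the median E18.5 log2 ratio. The number within the fixed lists, 16 as reported, was 25 at a ratio of 1.3, 6 at 2, 25 with no floor, 6 with a floor of 5 FPKM, 46, 31, 32 and 45 under the scalings in the same order, and 59 with E16.5 wild type as the control of the E18.5 mutant, an alternative added after seeing the data. The cause of these shifts was not tested. Without the E18.5 wild type library, 53 of the 70 had both mutant libraries under E16.5 wild type by 1.4-fold. The median GC content of the 70 differed from the median of all rows by -1.27 percentage points, and from that of rows with at least 1 FPKM in both wild type libraries by -2.36. No paired analysis was possible because each genotype and stage has 1 library, so the labels give no replicate numbers that pair libraries. A fit with stage as a term was not run on genes chosen by these same values. Depth limits the values of low or short transcripts, since under 20 reads lay behind a value of 3 genes.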
